A study of Homo sapiens with 3 samples.

Results

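The replication-dependent histone genes encode the H1, H2A, H2B, H3 and H4 proteins that package newly replicated DNA. They were taken here as every non-control probe whose gene name on the arrays began with HIST1H, HIST2H, HIST3H or HIST4H, which gave 85 probes for 65 genes out of 41000 probes in all. Of these, 76 probes for 59 genes lay outside columns 1 to 9 of the array layout and entered every count, and the 9 probes inside those columns were described apart for a reason given below. The cells were YB5, a single clone derived from the SW48 colon cancer line that carries 1 copy of a GFP gene silenced by methylation of its CMV promoter. YB5 cells received decitabine (25 nM), carboplatin (20 uM) or both drugs at these doses, 4 times on days 1 to 4, and RNA was taken on day 6. Decitabine is a deoxycytidine analogue that traps DNA methyltransferases after its incorporation into DNA, and carboplatin is a platinum compound that crosslinks DNA. Each treatment had 1 two-colour array, with the treated cells in the green channel (Cy3) and cells given the solvent DMSO in the red channel (Cy5), and the array of both drugs is called combination-labelled below.

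Cells make most histone mRNA in S phase, in step with DNA replication, and degrade it quickly when replication stops. The genes lie in clusters, the largest of which (HIST1) is on chromosome 6, with a smaller one (HIST2) on chromosome 1. Most of their mRNAs are not polyadenylated and end instead in a conserved stem-loop bound by SLBP, although some genes also give polyadenylated mRNA from a downstream signal. H2A, H2B, H3 and H4 form the nucleosome core, and H1 binds the linker DNA between nucleosomes.

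Several properties of the arrays bear on every value below. With 1 array per treatment and no exchange of the dyes there was no replicate error, no test between treatments was possible, and a dye effect particular to a probe could not be told apart from the treatment. All changes are log2 ratios of treated over control cells after loess normalization. The words rose and fell are used for a ratio of at least 1.5, which is 0.585 on the log2 scale, and levels are log2 signals of 1 channel that are comparable between arrays for the same probe but not between probes. An offset of 50 was added to the signals before the logarithm, so changes of dim probes are understated. The labelling reaction was primed with oligo(dT), so that a change in the amount of a histone mRNA and a change in the share of it carrying a poly(A) tail cannot be told apart. Nor can fewer cells in S phase and less histone mRNA per cell, since the RNA came from bulk cultures.

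Both channels were well above background for 66, 69 and 68 of the 76 histone probes on the 3 arrays (decitabine, carboplatin, both drugs). Probes for HIST1H1B, HIST1H2AA, HIST1H2BA and HIST1H4G were not well above background on any array. The control channel should hold the same kind of cells on all 3 arrays, and its level for a histone probe varied over the arrays by a median of 0.12 and at most 0.40 on the log2 scale. Replicated spots of the same probe on 1 array had a pooled SD of 0.0786, 0.0736 and 0.0757 outside columns 1 to 9, which covers technical error within an array only. Of 10 colon epithelium markers, 8 were well above background on some array, whereas CDX1 and GPA33 were not. PTPRC, the defining leukocyte marker, and PECAM1 and CDH5, which define endothelium, were not well above background on any array, and 3 of 6 fibroblast, 4 of 5 leukocyte and 1 of 3 endothelial markers were. The labels of the decitabine and carboplatin arrays are in doubt, and whether these arrays were exchanged cannot be settled from the files. A group of genes was named in the study, from these same samples, as lowered by carboplatin. Of its 53 genes, 40 fell on the decitabine-labelled array, 4 on the carboplatin-labelled array and 37 on the combination-labelled array, and the treatments are therefore given as labelled throughout. The study also described more changed genes with carboplatin than with decitabine. Here more probes passed 1.5-fold on the decitabine-labelled array (1470 lower and 1417 higher) than on the carboplatin-labelled array (407 lower and 748 higher).

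A minority of the histone probes fell on the decitabine-labelled and combination-labelled arrays, most of them probes of H4, H3 and H2A genes. On the decitabine-labelled array, 26 of 76 histone probes fell and 0 rose, beside 3.98% of all probes that fell and 3.84% that rose, with a median change of -0.29 for the histone probes and -0.02 for all probes, whose median was -0.003 and -0.0021 on the carboplatin-labelled and combination-labelled arrays. On the combination-labelled array, 24 fell and 2 rose, beside 4.52% and 5.58% of all probes, and the median was -0.14. Under median centring in place of loess, 54 fell on the first of these arrays (median -0.80) and 38 on the second (median -0.59). On the carboplatin-labelled array, 1 fell and 7 rose, beside 1.1% and 2.03% of all probes, with a median of 0.26 that became -0.17 under median centring, where 6 fell and 4 rose. With the signals processed by the scanner software the split on the combination-labelled array was 28 that fell and 7 that rose. Histone probes are bright, and the 54 of them among the brightest 25% of all probes were therefore set beside those 25%, a comparison added after the data were seen. Of these 54, 23 fell and 0 rose on the decitabine-labelled array, beside 6.87% and 7.05% of those bright probes. On the combination-labelled array 22 fell and 1 rose, beside 7.87% and 8.85%, and on the carboplatin-labelled array 1 fell and 5 rose, beside 2.16% and 2.92%.

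The 5 classes differed in their changes. With the decitabine label the median log2 change was -0.85 for 12 H4 probes, -0.60 for 17 H3 probes, -0.46 for 18 H2A probes, -0.18 for 23 H2B probes and -0.07 for 6 H1 probes. With both drugs the medians were -1.41, -0.55, -0.26, 0.00 and 0.27 in the same order of classes. Among the brightest 25% of probes H3 lay below H4 with the decitabine label, at -0.99 for 12 probes against -0.94 for 8. With the carboplatin label the medians were -0.01 for H4, 0.40 for H3, 0.24 for H2A, 0.26 for H2B and 0.58 for H1, of which the H2A and H2B values became -0.26 and -0.21 under median centring. The H2B median became -0.70 with the decitabine label and -0.43 with both drugs under that centring. A shift equal for all probes of an array leaves the distances between classes unchanged, so the distance of each class from H2B was taken as well. Median centring did not move the classes alike. With the decitabine label it took the H1 median from -0.07 to -0.18 and the H2B median from -0.18 to -0.70. The distances from H2B therefore also depend on the normalization. The H4 median minus the H2B median was -0.67 on the decitabine-labelled array and -1.41 on the combination-labelled array. Over 10 other ways of processing, the H4 minus H2B difference stayed between -0.82 and -0.65 on the first of these arrays, between -1.44 and -1.38 on the second, and between -0.49 and -0.22 on the carboplatin-labelled array, where it was -0.28. The H3 minus H2B difference was -0.42 (range -0.80 to -0.41) with the decitabine label, -0.55 (range -0.67 to -0.52) with both drugs, and 0.14 (range 0.11 to 0.24) with the carboplatin label. The H2A minus H2B difference was -0.28 (range -0.36 to -0.18), -0.26 (range -0.52 to -0.12) and -0.02 (range -0.07 to 0.04) on these arrays. The H1 minus H2B difference was 0.11 with the decitabine label, where its range of -0.03 to 0.52 crossed 0 in 2 of 10 ways, 0.27 (range 0.21 to 0.64) with both drugs and 0.32 (range 0.27 to 0.68) with the carboplatin label.

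**Figure D1:**
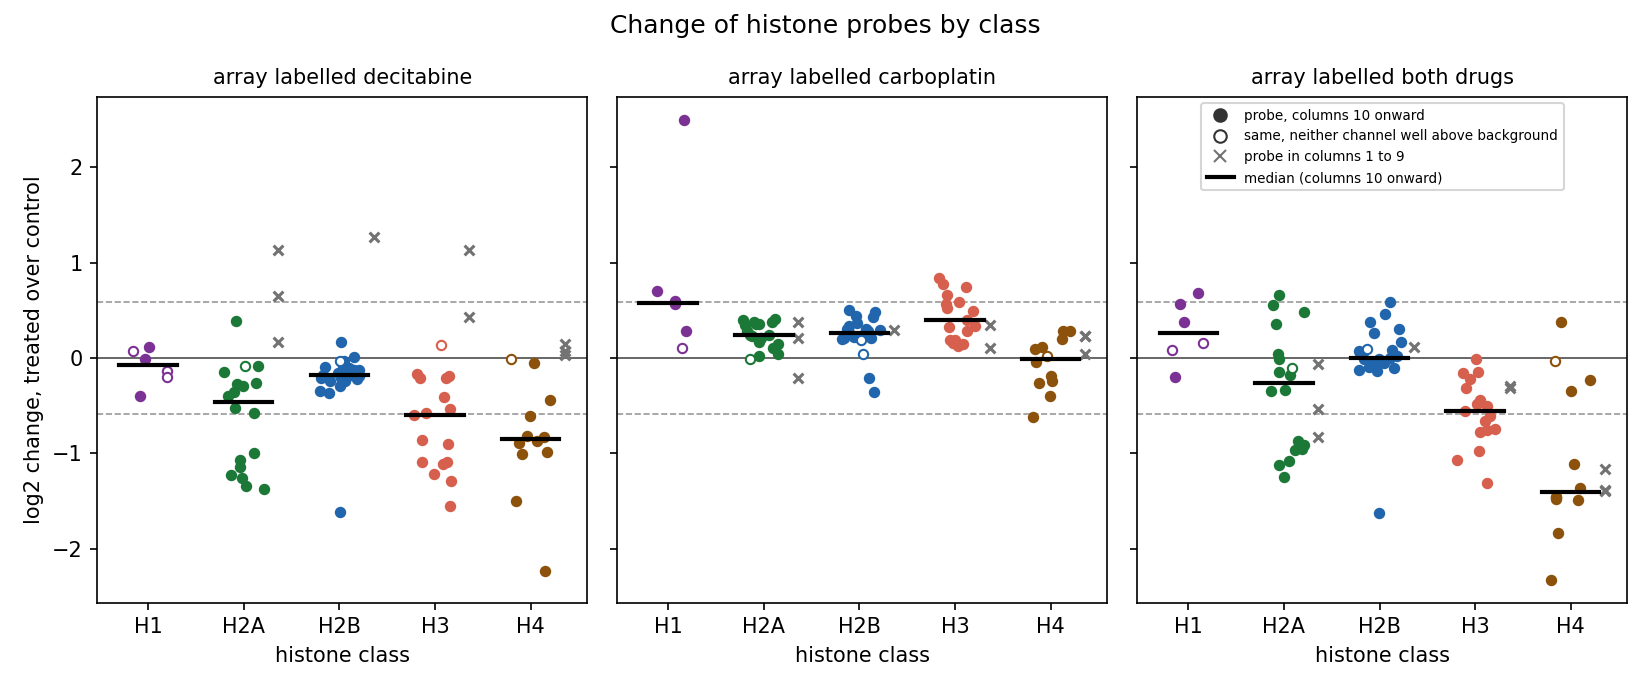
Log2 change (treated over control) of each histone probe by class on the 3 arrays. Filled points are probes outside columns 1 to 9, open points are those with neither channel well above background, grey crosses are probes in columns 1 to 9, black lines are class medians and dashed lines mark a ratio of 1.5 in either direction. H4 probes lie lowest on the decitabine-labelled and combination-labelled arrays, with medians of -0.85 and -1.41, while H2B probes lie near -0.18 and 0.00.

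The H4 genes, which for the most part encode the same protein from many copies, had the lowest class median on the combination-labelled array, and on the decitabine-labelled array when all H4 probes were counted. On the decitabine-labelled array 9 of 12 H4 probes fell (3.98% of all probes), on the combination-labelled array 8 fell (4.52%), and on the carboplatin-labelled array 1 fell (1.1%), and no H4 probe rose on any array. All 8 H4 probes among the brightest 25% of probes fell on the decitabine-labelled and combination-labelled arrays. HIST1H4C had control and treated levels of 18.15 and 15.92 on the decitabine-labelled array, 18.14 and 17.52 on the carboplatin-labelled array, and 18.22 and 15.89 on the combination-labelled array. It was therefore lower than its control on all 3 arrays, by 4.69-fold, 1.53-fold and 5.0-fold, the lowest change of any histone probe on each. Its fall on the carboplatin-labelled array lay close to the threshold and held in 5 of 7 other ways of normalizing. HIST1H4D went from 11.43 to 9.94, from 11.30 to 11.41 and from 11.29 to 9.82 in the same order of arrays, changes of -1.50, 0.12 and -1.48. It was thus lowered to a like extent with the decitabine and both-drugs labels and was near its control with the carboplatin label.

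The remaining H4 genes of the HIST1 and HIST2 clusters had a larger negative change on the combination-labelled array than on the decitabine-labelled array, with HIST1H4A as the exception among those that fell. HIST1H4J went from 13.30 to 12.29, from 13.37 to 12.97 and from 13.31 to 11.47, changes of -1.01, -0.40 and -1.84, the last being 3.57-fold. HIST1H4K changed by -0.90, -0.26 and -1.49, HIST2H4B by -0.98, -0.25 and -1.45, and HIST1H4F by -0.83, -0.19 and -1.46. HIST1H4I changed by -0.82, -0.05 and -1.36 and HIST1H4H by -0.87, 0.10 and -1.11. These genes lie in both parts of the HIST1 cluster and, for HIST2H4B, on another chromosome. HIST1H4A, a dim probe, went from 8.56 to 7.95, from 8.47 to 8.67 and from 8.46 to 8.11, and its changes were -0.60, 0.20 and -0.34. HIST4H4, the only H4 gene on chromosome 12, had changes of -0.44, 0.28 and -0.23 at 1 probe and -0.05, 0.28 and 0.37 at the other, none of which reached 1.5-fold.

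**Figure D2:**
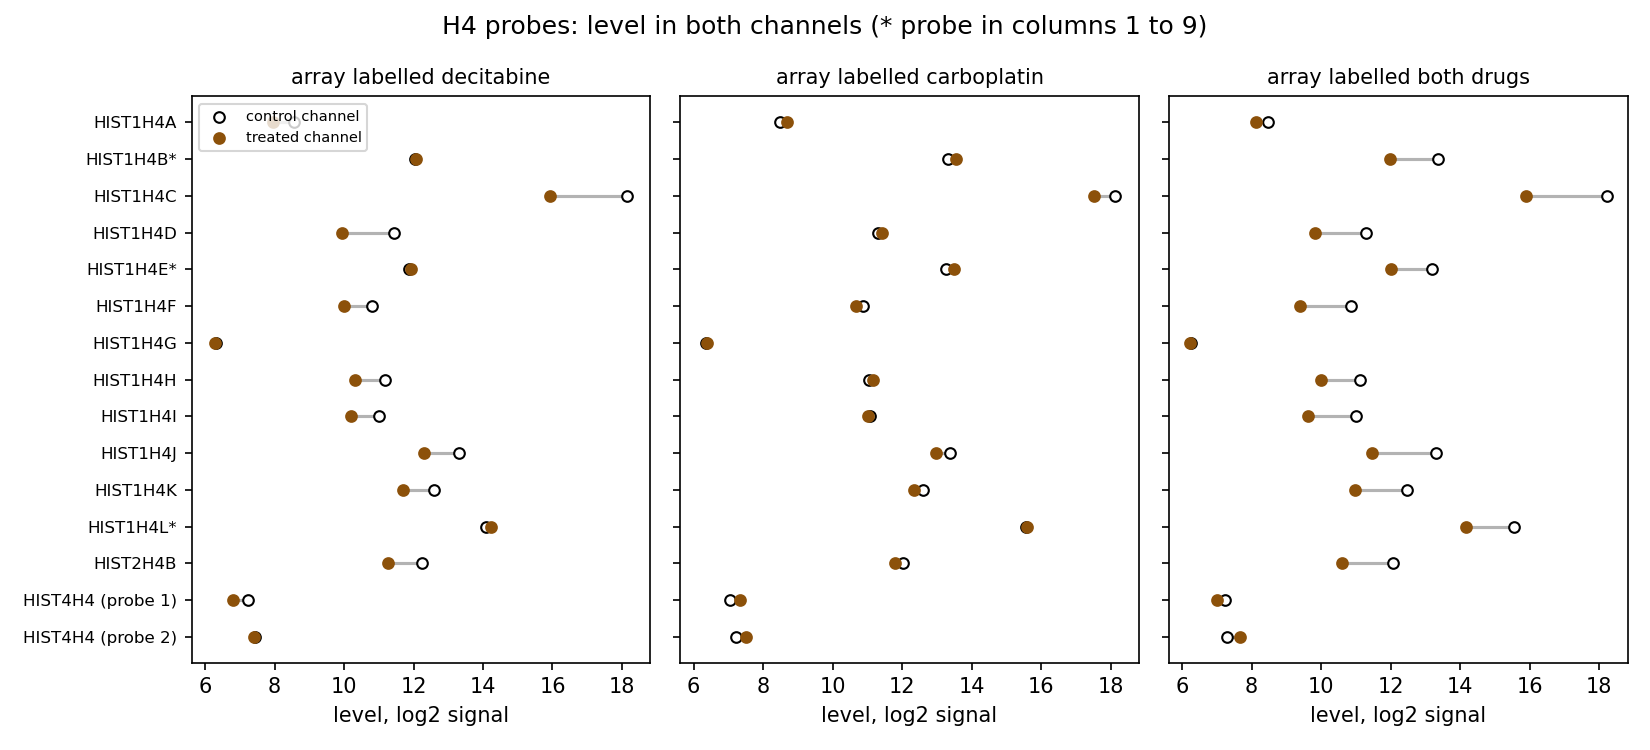
Log2 level of each H4 probe in the control channel (open) and the treated channel (filled) on the 3 arrays, ordered by gene name, with an asterisk for probes in columns 1 to 9. The treated level of HIST1H4C lies at 15.92, 17.52 and 15.89 against controls between 18.14 and 18.22, and the levels of different probes are not comparable with each other.

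The H4 coding sequences are alike, so the probes were compared to see whether neighbouring values could come from shared letters. The probes of HIST1H4F and HIST1H4H match in 45 of 53 aligned bases, and they are shown with the bases that differ in capitals. The first bases of the HIST1H4C and HIST1H4D probes share a run of 18 bases, given in capitals, which ends in the stop codon TGA. All are the mRNA strand, 5′ to 3′, at hg19 positions chr6:26240818-26240877, chr6:26285497-26285556, chr6:26104468-26104527 and chr6:26188952-26189011 for the whole probes.
HIST1H4F: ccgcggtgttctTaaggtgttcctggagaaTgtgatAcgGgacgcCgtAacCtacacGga
HIST1H4H: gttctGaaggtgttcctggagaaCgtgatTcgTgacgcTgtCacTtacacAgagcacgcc
HIST1H4C, first 20 bases: tgTATGGCTTCGGCGGCTGA
HIST1H4D, first 19 bases: tTATGGCTTCGGCGGCTGA
HIST1H4F and HIST1H4H had changes less than 1.5-fold apart on every array. HIST1H4C and HIST1H4D, which share less, were both lowered with the decitabine and both-drugs labels and had changes of -0.62 and 0.12 with the carboplatin label.

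Of 17 H3 probes, 9 fell on the decitabine-labelled array (3.98% of all probes) and 8 on the combination-labelled array (4.52%), and 4 rose on the carboplatin-labelled array (2.03%). HIST1H3B went from 13.30 to 11.75, from 13.34 to 13.67 and from 13.28 to 11.97 on the 3 arrays (decitabine, carboplatin, both drugs), changes of -1.55, 0.33 and -1.31, the first being 2.93-fold lower. Its second probe gave -1.29, 0.40 and -1.07. Both HIST1H3B probes were thus lowered with the decitabine and both-drugs labels and not with the carboplatin label. They overlap by 47 bases, shown in capitals, and lie at hg19 chr6:26031922-26031981 and chr6:26031909-26031968 on the minus strand.
HIST1H3B, first probe: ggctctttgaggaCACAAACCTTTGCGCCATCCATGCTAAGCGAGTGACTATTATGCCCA
HIST1H3B, second probe: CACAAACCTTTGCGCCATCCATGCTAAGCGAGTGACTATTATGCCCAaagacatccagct

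HIST1H3D and HIST1H3F moved in opposite directions with the single drugs. HIST1H3D went from 12.79 to 11.68 with the decitabine label, from 12.76 to 13.59 with the carboplatin label and from 12.78 to 12.02 with both drugs. These levels were 2.17-fold lower, 1.78-fold higher and 1.69-fold lower than the controls. Its second probe changed by -1.22, 0.75 and -0.74. HIST1H3F went from 12.04 to 10.95, from 11.94 to 12.71 and from 11.93 to 11.15, changes of -1.09, 0.77 and -0.78. HIST1H3G had the same pattern at its brighter probe, with -0.90, 0.66 and -0.66, while a dim second probe gave -0.41, 0.18 and -0.44. The rises of these genes with the carboplatin label held in 5 or 6 of 7 other ways of normalizing and not under median centring.

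The remaining H3 genes did not pass 1.5-fold on the carboplatin-labelled array. HIST1H3E changed by -1.09, 0.53 and -0.97 and HIST1H3H by -0.86, 0.56 and -0.61. HIST2H3A fell with the decitabine label (-0.60, 0.49 and -0.50), whereas HIST2H3D (-0.58, 0.58 and -0.48) and HIST1H3J (-0.54, 0.28 and -0.55) did not reach the threshold. HIST1H3A, HIST1H3C and HIST3H3, the last a testis gene, lay near their controls, with -0.21, 0.33 and -0.16, then -0.21, 0.16 and -0.14, then -0.19, 0.19 and -0.22. HIST1H3I gave 0.14, 0.15 and -0.01 and was not well above background in either channel on the decitabine-labelled array.

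Some H3 genes whose probes closely resemble each other had different changes. Among 9 pairs of H3 probes from different genes with at least 45 matching bases of 60, 6 were at least 1.5-fold apart in their change with the decitabine label, 0 with the carboplatin label and 5 with both drugs, and the greatest difference was 1.23, 0.43 and 0.96. The 1.23 and 0.96 were both from HIST1H3E against HIST1H3I. The HIST1H3I probe was not well above background in either channel on the decitabine-labelled array, so its change near 0 there is uncertain. Several probes enter more than 1 pair, so the pairs are not independent. The probes of HIST1H3D and HIST1H3A match in 46 of 58 aligned bases and those of HIST1H3H and HIST1H3I in 46 of 55. They are printed with the differing bases in capitals, from hg19 chr6:26197258-26197317 (minus strand), chr6:26020881-26020940 (plus), chr6:27778024-27778083 (plus) and chr6:27839857-27839916 (minus).
HIST1H3D: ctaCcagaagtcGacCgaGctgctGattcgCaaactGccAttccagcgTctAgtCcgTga
HIST1H3A: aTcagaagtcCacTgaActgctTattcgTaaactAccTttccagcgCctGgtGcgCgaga
HIST1H3H: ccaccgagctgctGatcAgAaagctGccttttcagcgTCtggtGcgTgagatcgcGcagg
HIST1H3I: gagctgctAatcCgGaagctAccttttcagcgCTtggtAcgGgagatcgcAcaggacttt
The HIST1H3D probe shown changed by -1.22 with the decitabine label and the HIST1H3A probe by -0.21. In contrast, a further HIST1H3F probe, made from a clone, changed by only -0.17, 0.12 and -0.31, and on hg19 it lies beside the HIST1H3H probe, away from the HIST1H3F gene.

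Some H2A probes fell by more than 1.5-fold and others did not, and in some genes the probes differed. On the decitabine-labelled and combination-labelled arrays 7 of 18 H2A probes fell on each (3.98% and 4.52% of all probes), and on the carboplatin-labelled array 0 changed by 1.5-fold. HIST1H2AH changed by -1.26, 0.24 and -0.96 and HIST1H2AG by -1.07, 0.40 and -0.91. The probes of HIST1H2AJ gave -1.15, 0.23 and -0.87, and -1.23, 0.37 and -0.97. These genes lie in the second part of the HIST1 cluster. HIST1H2AE, in the first part, went from 10.45 to 10.84, from 10.38 to 10.75 and from 10.51 to 11.17, and with a change of 0.66 it was the H2A gene that rose with both drugs, in 6 of 7 other ways of normalizing. HIST2H2AA4 gave -0.08, 0.41 and 0.56, and -0.15, 0.34 and 0.49 at its probes, HIST1H2AD -0.26, 0.36 and 0.36, and HIST1H2AK -0.29, 0.02 and -0.14 outside columns 1 to 9. HIST1H2AB changed by -0.40, 0.35 and -0.34 and HIST1H2AC by -0.28, 0.16 and -0.34.

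In 3 H2A genes, probes placed close together on the same mRNA gave different changes. For HIST2H2AC, 1 probe went from 12.78 to 11.44, from 12.70 to 12.84 and from 12.78 to 11.66 (-1.34, 0.14 and -1.12), while the other went from 14.98 to 14.46, from 14.97 to 15.21 and from 14.94 to 14.93 (-0.52, 0.24 and -0.01). For HIST2H2AB the probes gave -1.0, 0.04 and -1.08 against -0.36, 0.21 and 0.04. HIST1H2AM went from 11.83 to 10.45, from 11.63 to 11.73 and from 11.77 to 10.52 at its downstream probe (-1.38, 0.10 and -1.25), and gave -0.58, 0.28 and -0.18 upstream. In HIST2H2AC and HIST1H2AM it was the downstream probe that fell, and in HIST2H2AB as well. The pairs are printed in the order lowered probe, other probe, with capitals for the run that both probes share, or for the stop codon in HIST1H2AM. The positions on hg19 are chr1:149858863-149858922 and chr1:149858838-149858897 (plus strand), chr1:149859153-149859212 and chr1:149859185-149859244 (minus), and chr6:27860507-27860566 and chr6:27860577-27860636 (minus).
HIST2H2AC, lowered: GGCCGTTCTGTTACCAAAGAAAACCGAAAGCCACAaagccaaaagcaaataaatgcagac
HIST2H2AC, other: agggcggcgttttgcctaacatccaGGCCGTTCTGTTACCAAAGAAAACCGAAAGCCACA
HIST2H2AB, lowered: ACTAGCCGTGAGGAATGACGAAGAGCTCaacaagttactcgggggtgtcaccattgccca
HIST2H2AB, other: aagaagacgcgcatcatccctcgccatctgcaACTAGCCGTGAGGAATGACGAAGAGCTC
HIST1H2AM, lowered: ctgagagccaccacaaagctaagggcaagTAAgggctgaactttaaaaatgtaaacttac
HIST1H2AM, other: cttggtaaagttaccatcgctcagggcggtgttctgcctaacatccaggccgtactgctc
HIST2H2AC probes share 35 bases and HIST2H2AB probes 28, so a value for either gene depends on which probe is read. The other probe of each pair also shared the longer run with a probe of another H2A gene. These runs were 19 against 9 bases in HIST2H2AC, 20 against 12 in HIST2H2AB and 19 against 16 in HIST1H2AM. What sets the difference was not tested.

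After loess normalization the H2B probes had changes below 1.5-fold, with 1 exception that faces the other strand. Under median centring their median was -0.70 with the decitabine label and -0.43 with both drugs. All 22 H2B probes that carry the mRNA strand lay between -0.36 and 0.17 on the decitabine-labelled array, and none changed by 1.5-fold on any array after loess. HIST1H2BD, at its probe for the mRNA strand, went from 12.21 to 12.06, from 12.27 to 12.56 and from 12.12 to 12.20, changes of -0.15, 0.28 and 0.08. HIST1H2BJ gave -0.36, 0.22 and -0.13 at 1 probe and -0.12, 0.44 and 0.58 at a downstream one. The 0.58 lay just under the threshold, and this downstream probe rose with both drugs in 4 of 7 other ways of normalizing. With the carboplatin label it rose in 2 of those 7. HIST1H2BK had the highest value with the decitabine label, 0.17, beside 0.48 and 0.30. The 3 probes of HIST2H2BE gave -0.25, 0.26 and 0.37, then -0.21, 0.21 and 0.46, then -0.24, 0.22 and -0.04. HIST1H2BE changed by -0.19, 0.23 and -0.07 and by -0.03, 0.50 and 0.16 at its probes, and HIST1H2BN by -0.18, 0.33 and -0.05 and by 0.01, 0.04 and 0.26. HIST3H2BB, which like HIST2H2BE lies on chromosome 1, gave -0.18, 0.30 and 0.02, and -0.29, -0.21 and -0.01.

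Probes that resemble each other were closer in H2B than in H3. All H2B probes of the mRNA strand lay close together, alike or not, between -0.36 and 0.17 with the decitabine label. The closeness of the pairs therefore cannot be tied to their shared bases. The 6 pairs of H2B probes from different genes with at least 45 matching bases differed in their change by at most 0.15, 0.21 and 0.08 on the 3 arrays. The most alike were those of HIST1H2BF and HIST1H2BE, with 56 of 60 bases matching and the 4 differing bases in capitals, at hg19 chr6:26200103-26200162 and chr6:26184340-26184399, both on the plus strand.
HIST1H2BF: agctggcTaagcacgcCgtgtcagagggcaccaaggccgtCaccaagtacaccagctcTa
HIST1H2BE: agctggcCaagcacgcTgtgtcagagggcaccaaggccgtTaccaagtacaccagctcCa
HIST1H2BF changed by -0.22, 0.19 and -0.09, and signal from these genes could not be told apart by such probes.

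The H2B probe that fell carries the strand complementary to the HIST1H2BD mRNA. The labelled material was first-strand cDNA, which is complementary to mRNA and pairs with probes of the mRNA strand, so a probe of the other strand should not read the mRNA of the gene it is named for. This probe went from 12.54 to 10.93 with the decitabine label, from 12.40 to 12.04 with the carboplatin label and from 12.44 to 10.81 with both drugs. Its levels were 3.05-fold and 3.09-fold below the control on the decitabine-labelled and combination-labelled arrays, where the mRNA-strand probe was not lowered by 1.5-fold. A further probe, named CU686711 and described on the array as a clone read of HIST2H2BE, also faces away from the mRNA and overlaps the HIST1H2BN probe by 30 bases on the opposite strand. It was no member by its name and is given because it also faces the other strand. Whether the arrays hold more probes of this kind was not examined. It went from 11.48 to 10.19, from 11.46 to 11.37 and from 11.44 to 10.10, changes of -1.30, -0.10 and -1.34. The HIST1H2BN probe that covers the same 30 bases went from 13.07 to 12.89, from 13.02 to 13.36 and from 13.10 to 13.06.
HIST1H2BD, mRNA strand: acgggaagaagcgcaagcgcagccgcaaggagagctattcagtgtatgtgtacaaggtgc
HIST1H2BD, other strand: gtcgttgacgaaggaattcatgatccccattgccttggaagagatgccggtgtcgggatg
HIST1H2BN, mRNA strand: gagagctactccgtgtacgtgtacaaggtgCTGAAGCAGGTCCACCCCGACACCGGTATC
CU686711, other strand: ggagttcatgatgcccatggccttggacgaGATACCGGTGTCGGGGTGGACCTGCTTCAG
Capitals mark the 30 bases read from opposite strands, and the hg19 positions are chr6:26158474-26158533, chr6:26158545-26158604, chr6:27806545-27806604 and chr6:27806575-27806634. The probes of the other strand match each other in 42 of 48 aligned bases, and the reverse complement of the HIST1H2BD one matches the HIST1H2BJ probe in 47 of 55. Which RNA they read was not tested.

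The H1 genes did not fall on any array, and 3 of 6 rose on the carboplatin-labelled array (2.03% of all probes). HIST1H1A had control and treated levels of 6.38 and 6.18 with the decitabine label, neither well above background. With the carboplatin label it went from 6.16 to 8.66, both well above background, which was 5.66-fold higher and the highest change of any histone probe. With both drugs it went from 6.32 to 7.01, where the treated channel alone was well above background, a rise of at least 1.61-fold. The rise with the carboplatin label held in 7 of 7 other ways of normalizing, at log2 changes from 2.40 to 4.46. The HIST1H1A probe matches no other H1 probe in more than 33 bases, and it was not compared with probes of the other classes. Its sequence is the mRNA strand at hg19 chr6:26017351-26017410, minus strand.
HIST1H1A: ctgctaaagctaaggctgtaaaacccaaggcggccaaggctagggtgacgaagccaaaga
HIST1H1D went from 9.88 to 9.87, from 9.79 to 10.49 and from 9.86 to 10.24, and the rise of 0.70 with the carboplatin label held in 6 of 7 other ways of normalizing. HIST1H1E went from 13.50 to 13.09, from 13.56 to 14.16 and from 13.44 to 13.24, and its rise of 0.60 held in only 2 of those 7. HIST1H1C, an H1 gene whose mRNA is also found polyadenylated, went from 15.19 to 15.30, from 15.16 to 15.73 and from 15.16 to 15.73, just under 1.5-fold on the last 2 arrays. HIST1H1T, the testis H1, was well above background in the treated channel alone with the carboplatin label, at no less than 1.21-fold over its control.

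Genes with more than 1 probe showed how far a value for a gene depends on its probe. There were 16 such genes outside columns 1 to 9, and the spread of log2 change between their probes had a median of 0.25, 0.17 and 0.39 on the 3 arrays (decitabine, carboplatin, both drugs). The widest spread was 1.45, 0.65 and 1.71, and probes of a gene were at least 1.5-fold apart in 5, 2 and 6 genes. The 1.45 and 1.71 came from HIST1H2BD, where 1 probe carries the other strand. The 0.65 came from HIST1H3F, where 1 probe lies beside the HIST1H3H probe. These were also the 2 genes counted with the carboplatin label, and their probes may not read the same gene. Over all histone probes, 26 shared a run of at least 20 bases with a probe of another gene of the same class, and 11 listed more than 1 RefSeq accession. These values are therefore uncertain as to which copy of a family they read.

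**Figure D3:**
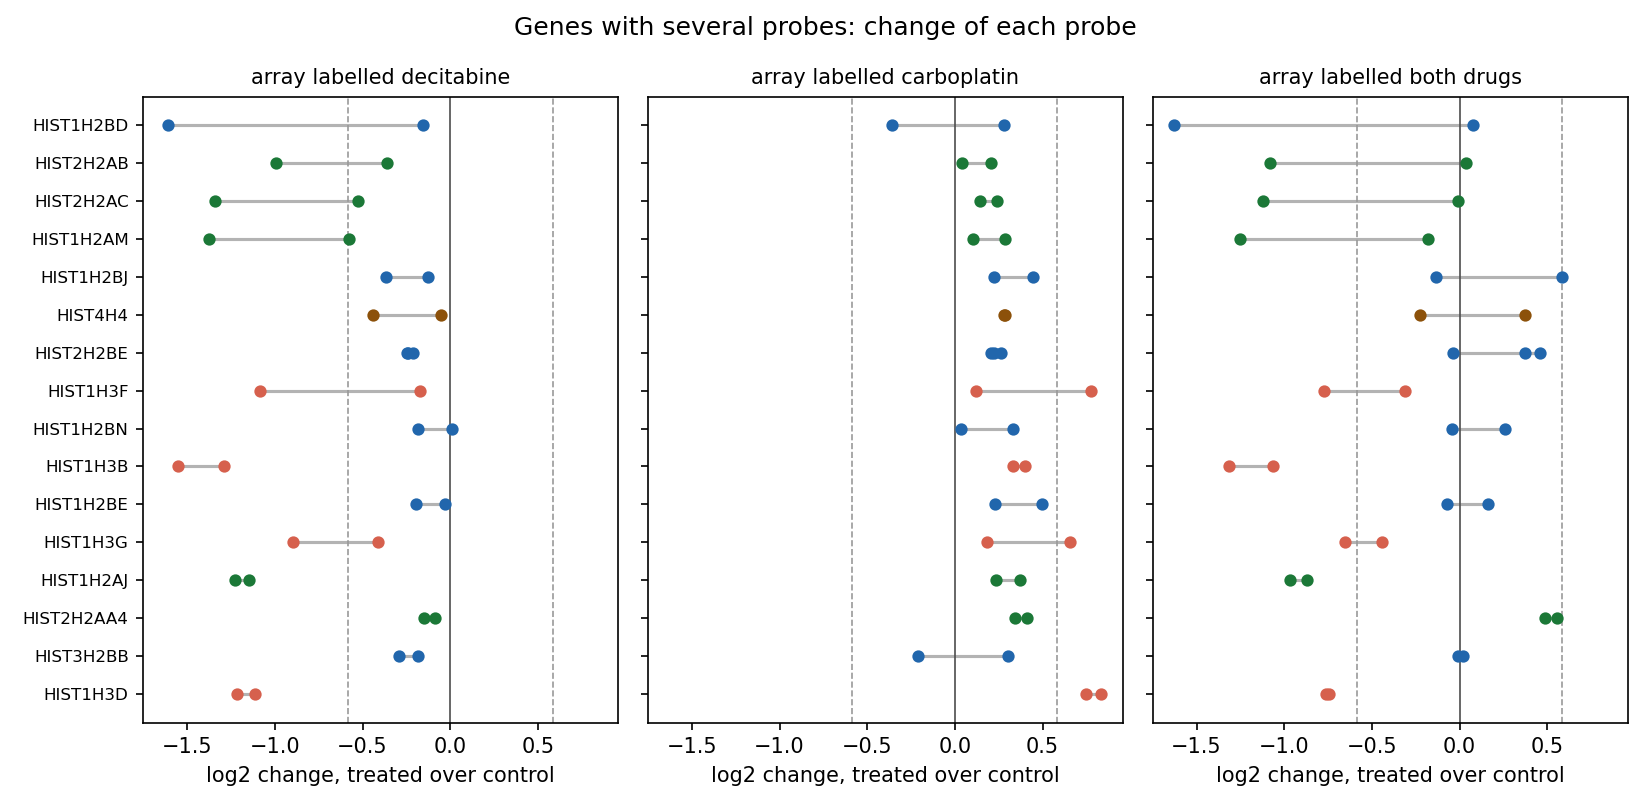
Log2 change of each probe for histone genes with more than 1 probe outside columns 1 to 9, on the 3 arrays, with genes ordered by the spread between their probes on the combination-labelled array. Each dot is 1 probe. HIST1H2BD is the widest, with -1.63 at a probe of the other strand and 0.08 at the mRNA-strand probe, and HIST2H2AC gives -1.12 and -0.01.

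The 9 histone probes in columns 1 to 9 could not be read on the decitabine-labelled array. The control signal was low in these columns on that array, where 57.0% of all probes rose and 0.147% fell, and the control level of the 9 probes lay a median of 1.41 below that on the carboplatin-labelled array. HIST1H4B showed this, with a control of 12.05 and a treated level of 12.08 on the decitabine-labelled array, beside 13.33 and 13.56 with carboplatin and 13.37 and 11.97 with both drugs. The changes of the 9 probes on the decitabine-labelled array ran from 0.04 for HIST1H4B to 1.27 for HIST1H2BC, and 4 of 9 rose. On the combination-labelled array, 4 of the 9 fell, beside 4.03% of all probes in these columns, and 0 rose, beside 6.62%. The H4 genes HIST1H4B, HIST1H4L and HIST1H4E changed there by -1.40, -1.39 and -1.16, within the range of the other H4 genes, and HIST1H2AL by -0.83. The other probes there gave -0.53 for HIST1H2AK, -0.32 for HIST1H3F, -0.29 for HIST2H3D, -0.07 for HIST3H2A and 0.11 for HIST1H2BC. On the carboplatin-labelled array, where 1.39% of all probes in these columns fell and 1.91% rose, none of the 9 changed by 1.5-fold and their changes ran from -0.21 for HIST1H2AL to 0.38 for HIST1H2AK.

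The change with both drugs was set beside the sum of the changes with each drug alone. For 75 of 76 histone probes, and for 35742 of 36901 probes of all genes, the log2 change with both drugs lay within 1.5-fold of that sum, with a median difference of -0.11 over histone probes and 0.01 over all probes. The class medians of the difference were -0.16 for H4, -0.29 for H3, 0.05 for H2A, -0.06 for H2B and -0.21 for H1. HIST1H1A was the exception, at -1.61, with 2.50 on the carboplatin-labelled array and 0.69 on the combination-labelled array. HIST1H4C lay above the sum by 0.52. All 3 comparisons use control cells of the same kind and none has a replicate, so this is a description of the arrays.

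The HIST1 probes covered chromosome 6 from 25726563 to 27861647 (hg19), a span of 2.14 Mb with 66 histone probes. Probes that fell on the decitabine-labelled and combination-labelled arrays lay in both parts of the cluster, beside 3.98%, 1.1% and 4.52% of all probes that fell and 3.84%, 2.03% and 5.58% that rose on the 3 arrays in turn. In the first part (chr6:25726563-26285556), 13, 1 and 12 of 36 probes fell and 0, 7 and 2 rose on the 3 arrays (decitabine, carboplatin, both drugs), with medians of -0.24, 0.31 and -0.15. In the second part (chr6:27093288-27861647), 9, 0 and 9 of 23 probes fell and none rose, with medians of -0.36, 0.23 and -0.18. The 7 histone probes that rose on the carboplatin-labelled array were therefore all from the first part. The span also held 49 probes for 36 other names, of which 9, 0 and 10 fell and 1, 0 and 1 rose, with medians of -0.25, -0.02 and -0.26, beside the same shares of all probes. The lowest of these on the decitabine-labelled array was a clone named BC079832, with -1.65, -0.31 and -1.10. These 49 probes were set apart by name only, and some may read histone sequence. CU686711, described above as a clone read of a histone gene, is among those that fell (-1.30, -0.10 and -1.34). An unnamed probe beside that of HIST1H1C gave 0.04, 0.44 and 0.38. Of 12 HIST2 probes outside columns 1 to 9, on chromosome 1, 4, 0 and 3 fell.

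**Figure D4:**
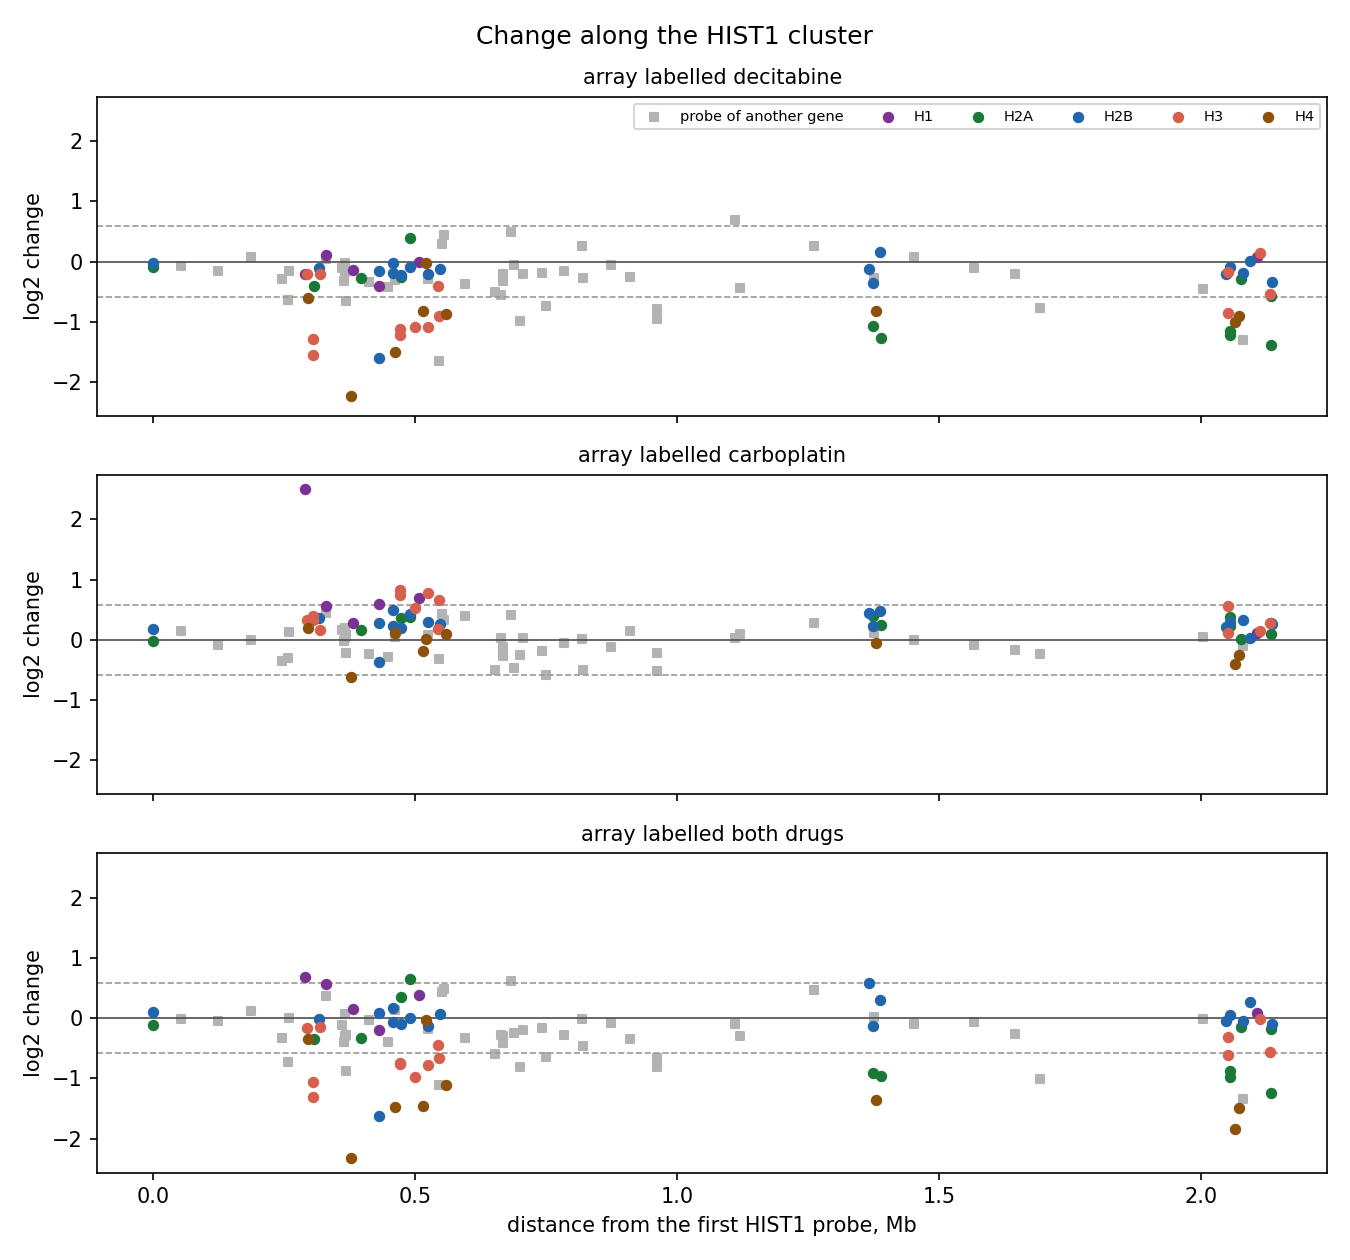
Log2 change against distance along chromosome 6 from the first HIST1 probe, in Mb, on the 3 arrays. Colours mark histone classes and grey squares are probes under other names in the span, among them CU686711, a clone read of a histone gene. Lowered H4 and H3 probes are interspersed with H2B probes near 0 in both parts of the cluster. The probes under other names had medians of -0.25, -0.02 and -0.26.

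The promoters of the histone classes differ in their motifs, and these were counted beside the changes. All 65 genes were matched to RefSeq by accession, and 60 had a promoter sequence, taken from 250 bases before to 50 after the start on GRCh38.p14. Letters were searched on both strands, where CCAAT is the NF-Y motif, ATTTGCAT the octamer bound by POU2F1 (OCT1), AAACACA an element known from H1 promoters, GGTCCG the core of the site bound by HINFP in H4 promoters and TATAAA the core of the TATA box. The letters of no motif contain those of another. GGTCCG was found in 11 of 12 H4 promoters, 1 of 14 H2A, 1 of 17 H2B, 1 of 11 H3 and 0 of 6 H1 promoters, and in 11.2% of all promoters. The H4 gene without it was HIST1H4G, whose probe was not well above background. AAACACA was in all 6 H1 promoters, in HIST2H2AC and HIST2H3A, and in 5.76% of all promoters. CCAAT was in every H1, H2A, H2B and H3 promoter, 3 of 12 H4 promoters and 35.7% of all. ATTTGCAT was in 11 of 14 H2A, 13 of 17 H2B and 1 of 11 H3 promoters, in none of H1 and H4, and in 1.8% of all. TATAAA was in 40 of the 60 promoters and in 12% of all.

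The changes were then split by motif. The counts stand beside 3.98%, 1.1% and 4.52% of all probes that fell on the 3 arrays (decitabine, carboplatin, both drugs). For 16 probes of 11 genes with GGTCCG the median change was -0.82, 0.13 and -0.94 in that order, and 9, 0 and 9 fell. For 55 probes of 43 genes without GGTCCG the median was -0.21, 0.30 and -0.10, and 14, 0 and 13 fell. For 8 probes of 7 genes without CCAAT the median was -0.88, 0.06 and -1.28 and 5, 0 and 5 fell, against -0.25, 0.28 and -0.11 for 63 probes with it. The medians with and without ATTTGCAT were -0.26 and -0.29, 0.26 and 0.28, and -0.08 and -0.22 on the 3 arrays. Those with and without AAACACA were -0.20 and -0.28, 0.49 and 0.26, and 0.09 and -0.14, and those with and without TATAAA were -0.31 and -0.26, 0.28 and 0.19, and -0.15 and -0.12. These splits do not hold HIST1H2AH, HIST1H3I, HIST1H3J, HIST1H4A and HIST1H4C, the last being the H4 gene with the lowest change. The presence of a motif goes with the histone class, so that motif and class cannot be told apart, and whether any factor was bound was not tested. The 250 bases before the start are shown for a gene of each kind, HIST1H4D as the H4 example, HIST1H1A as the H1 gene with the largest rise, HIST1H3B as a lowered H3 gene and HIST1H2BF as an H2B gene near its control. Capitals mark the motifs, on either strand, and the positions on GRCh38.p14 are chr6:26189113-26189362 (minus), chr6:26017788-26018037 (minus), chr6:26032100-26032349 (minus) and chr6:26199266-26199515 (plus).
HIST1H4D: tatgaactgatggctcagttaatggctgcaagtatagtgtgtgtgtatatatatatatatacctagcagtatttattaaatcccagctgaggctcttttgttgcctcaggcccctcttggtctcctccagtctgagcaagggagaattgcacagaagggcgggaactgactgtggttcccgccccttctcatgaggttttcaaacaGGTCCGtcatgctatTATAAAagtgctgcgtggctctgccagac
HIST1H1A: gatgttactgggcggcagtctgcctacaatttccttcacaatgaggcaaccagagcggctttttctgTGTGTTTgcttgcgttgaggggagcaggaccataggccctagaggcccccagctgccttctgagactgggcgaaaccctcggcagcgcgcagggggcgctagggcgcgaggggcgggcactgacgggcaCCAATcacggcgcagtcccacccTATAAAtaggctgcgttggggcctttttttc
HIST1H3B: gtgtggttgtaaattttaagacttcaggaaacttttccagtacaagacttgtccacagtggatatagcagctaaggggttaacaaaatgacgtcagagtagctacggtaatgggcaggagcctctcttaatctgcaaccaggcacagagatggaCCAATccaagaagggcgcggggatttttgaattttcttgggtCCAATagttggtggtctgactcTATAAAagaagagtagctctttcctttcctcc
HIST1H2BF: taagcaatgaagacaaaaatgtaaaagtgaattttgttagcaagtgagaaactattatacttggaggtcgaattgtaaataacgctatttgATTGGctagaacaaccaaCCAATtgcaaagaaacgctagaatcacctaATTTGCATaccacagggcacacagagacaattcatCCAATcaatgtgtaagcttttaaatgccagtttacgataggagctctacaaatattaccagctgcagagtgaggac
In HIST1H4D, GGTCCG begins 44 bases and TATAAA 29 bases before the start. HIST1H1A holds AAACACA in reverse 183 bases before it, HIST1H3B holds CCAAT at 96 and 54, and HIST1H2BF holds ATTTGCAT at 111.

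The lists of genes acting on histone mRNA were short, and their counts were not set apart from the shares of all probes. Genes of each list were counted where a probe lay outside columns 1 to 9, which left out SLBP among others, and the counts stand beside 3.98%, 1.1% and 4.52% of all probes that fell and 3.84%, 2.03% and 5.58% that rose. Of 12 genes measured out of 16 names listed for histone pre-mRNA 3′ end processing, 1, 0 and 1 fell on the 3 arrays (decitabine, carboplatin, both drugs) and none rose. The gene that fell was CASP8AP2 (FLASH), needed for histone mRNA processing, with -0.72, -0.33 and -0.84. Of 15 genes of 16 names listed for histone gene transcription, NFYB, a subunit of the factor that binds CCAAT, fell with both drugs (-0.50, 0.00 and -0.67) and no other changed by 1.5-fold. NPAT, the S phase activator of histone genes, named after its values were seen, gave -0.08, 0.13 and -0.06. None of 10 genes of 12 names listed for histone mRNA translation and decay changed by 1.5-fold. The 5 histone genes with known polyadenylated mRNA (HIST1H1C, HIST1H2AC, HIST1H2BD, HIST1H2BK and HIST2H2BE) did not change by 1.5-fold either, with medians of -0.15, 0.28 and 0.08. HIST2H2BE entered by its brightest probe, at -0.04 with both drugs, where its other probes gave 0.37 and 0.46.

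Some genes for histone variants, chaperones and DNA replication fell on the decitabine-labelled and combination-labelled arrays, read against the shares of all probes just given. Of 14 variant genes of 16 names listed, whose mRNAs are polyadenylated for the most part, 6, 0 and 4 fell and none rose, with medians of -0.43, -0.06 and -0.31. CENPA, the centromeric H3, changed by -1.40, 0.19 and -1.36, and its chaperone HJURP by -1.02, -0.07 and -0.76. H2AFZ and H2AFV, the H2A.Z genes, gave -1.0, -0.24 and -1.05 and -1.25, -0.08 and -1.12. The linker histones H1F0 and H1FX gave -1.30, 0.39 and -0.63 and -0.70, 0.48 and -0.47, and H3F3A, an H3.3 gene, -0.66, -0.06 and -0.58. Of 17 genes of 19 names listed for chaperones and assembly, 3, 0 and 2 fell and 0, 1 and 0 rose. Beside HJURP these were ASF1B (-0.67, 0.12 and -0.69) and CHAF1A (-0.59, 0.15 and -0.45), which hand H3 and H4 to replicating DNA, and NAP1L4, an H2A and H2B chaperone that rose by 0.66 with the carboplatin label.

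Of 22 genes of 26 names listed for DNA replication in S phase, 7, 0 and 7 fell (3.98%, 1.1% and 4.52% of all probes) and 1, 1 and 0 rose (3.84%, 2.03% and 5.58%), with medians of -0.40, 0.17 and -0.32. The helicase subunits MCM3 and MCM5 changed by -1.01, -0.11 and -0.96 and by -0.83, 0.14 and -0.68, and GINS3, of the same helicase, by -0.80, -0.09 and -0.85. UHRF1, which brings DNMT1 to replicated DNA, gave -0.84, 0.31 and -0.78, and TK1, thymidine kinase, -0.73, 0.40 and -0.45. CDT1, a replication licensing factor, rose with the carboplatin label (0.25, 0.69 and 0.40), and PCNA, the replication clamp, named after its values were seen, rose with the decitabine label (0.68, -0.12 and 0.40). The part of a changed share of S phase cells in the histone values was not tested.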

How the data were processed

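Per the labels, RNA of treated YB5 cells (Cy3) and of control cells (Cy5) was hybridised together on 3 two-colour Agilent arrays of 1 slide, 1 for each treatment, and nothing in the labels describes repeat cultures. The deposited scanner files hold spot intensity values from Agilent Feature Extraction (9.5.3.1 by the file header), mean and median signals that are not normalized, processed signals that are background subtracted and dye normalized, and a log10 ratio of red over green. The authors also deposited a table of loess-normalized log2 ratio values made with limma, whose direction was settled by its correlation with the scanner values.

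Here the mean intensity was corrected with normexp (offset 50) and loess normalized within each array in limma 3.58.1 under R 4.3.3, with control spots and outlier spots at weight 0, and spots of a probe were averaged. Signs were turned to treated over control, and channel levels were scaled with Aquantile. Members and gene lists were chosen with earlier results of these data known. With 1 array for each treatment no test was made, a call is a ratio of at least 1.5, and counts are read against the share of all probes called on the same array. A fold against a channel not well above background was computed against the higher of the lowest signal well above background and the probe's own signal in that channel, and is given as at least that value. The number of arrays limits the precision.

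Alternatives were the processed signals, the scanner's log ratio, the authors' table, median signals without subtraction, median centring, outlier spots kept, columns 1 to 9 left out, a filter on the dimmest 25% of probes, 1 probe a gene, a ratio of at least 2 and, added after the data were seen, the brightest 25% of probes. Named were the members past 1.5-fold on any array and above background there, the lowest and highest of each class, members with several probes, members in columns 1 to 9, and at most 6 genes a list by size of change. Sequence was matched with Python 3.11.15 and pandas 2.3.3, with probes on hg19 as the files give them and promoters from RefSeq on GRCh38.p14. The ratio calculation was tested on simulated data.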

Additional observations from a re-analysis of the deposited data

How the results depend on the processing

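The median change of the histone probes with the decitabine and both-drugs labels was below 0 under every alternative run, and that with the carboplatin label turned from 0.26 to -0.17 under median centring. Under median centring 54 probes fell with the decitabine label (median -0.80), 6 fell and 4 rose with the carboplatin label, and 38 fell and 1 rose with both drugs (median -0.59), while the carboplatin medians of H2A and H2B became -0.26 and -0.21. With the processed signals, 2 rose with the decitabine label (median -0.50), 12 rose with the carboplatin label and 7 with both drugs. With the scanner's own log ratio the decitabine median was -0.50, 12 rose with the carboplatin label and 7 with both drugs. The authors' table gave medians of 0.18 with the carboplatin label and -0.26 with both drugs. Among the brightest 25% of probes, chosen after seeing the data, the decitabine median was -0.40 and 1 rose with both drugs. At a ratio of at least 2, 16 fell with the decitabine label, 0 fell and 1 rose with the carboplatin label, and 14 fell and 0 rose with both drugs. The cause of these shifts was not tested. No paired analysis was possible because each treatment has 1 array. Without replicate arrays or a dye swap, none of these alternatives measures biological error, and the oligo(dT) priming, the low control signal in columns 1 to 9 and the shared probe letters limit all of them alike.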
